A study of Oryza sativa Japonica Group with 6 samples.

Results

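Sucrose made in leaves reaches the young rice panicle through the phloem, and the genes described here cover 2 of the ways to cleave it. Sucrose synthase splits sucrose in the cytosol in a reversible reaction that gives UDP-glucose for cell walls and starch, whereas cell wall invertase splits it outside the cell into glucose and fructose. Sucrose transporters carry intact sucrose across the plasma membrane, and monosaccharide transporters take up the hexoses that invertase releases, a route known in rice for feeding the anther. The MYB factor *CSA* (carbon starved anther) is known to control this route in anthers through *OsMST8*.

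The 10 genes described here are 4 sucrose synthase genes (*OsSUS1*, *OsSUS2*, *OsSUS3* and *OsSUS4*), 3 cell wall invertase genes (*OsCIN1*, *OsCIN2* and *OsCIN3*), the sucrose transporter gene *OsSUT1*, the monosaccharide transporter gene *OsMST8* and *CSA*. They were chosen by their locus identifiers, and they are 10 of the 42189 genes listed in the expression table. RNA-seq was done on young panicles before heading, with 3 libraries of 187R and 3 libraries of NIL-*hfr131*, both under the treatment labelled natural. 187R is an *indica* restorer line with the *HFR131* allele of the brassinosteroid receptor gene *OsBRI1*, and NIL-*hfr131* is 1 near-isogenic line that was backcrossed to 187R and carries *hfr131* from the wild rice *Oryza longistaminata* on an introgressed fragment of the long arm of chromosome 1. The line comparison therefore holds every wild-rice allele on the fragment, not the receptor allele alone. The labels call the 3 libraries of a line biological replicates, and the number of plants or panicles behind each is not given in the sources used here. The labels name the Japonica group as the organism, whereas the study describes 187R as *indica*, and the gene identifiers of the table are those of the *japonica* reference annotation.

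Values are in TPM, in which each gene's reads are first divided by the length of the gene and then scaled to a fixed total per library, so levels of different genes can be compared on this scale. Each library summed to 1000000 TPM, and the sequencing depth is unknown. For the tests, genes with a mean of at least 1 TPM over the 6 libraries were kept, which left 21531 genes and 8 of the 10 members. The difference between lines is the log2 fold change of TPM + 1, a positive value is a higher level in NIL-*hfr131*, and the added 1 makes the change of genes near 0 look smaller. Tests were made with limma, and p-values were adjusted over all 21531 genes.

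NIL-*hfr131* replicate 3 stood apart from the other 5 libraries. Its log2 values correlated with theirs at 0.916 to 0.937, whereas the 5 correlated among themselves at 0.982 to 0.991. Of the tested genes, 47.6% had their highest level in this library. Results are therefore given with and without it. As a description of the tissue, 11 floral organ MADS loci were all tested and summed to between 2348 and 2720 TPM in the 6 libraries. The series holds no other tissue to compare with, so these sums are no test of the panicle label.

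The 10 genes spanned a wide range of levels, with the sucrose synthase genes *OsSUS1* and *OsSUS2* at the top (the plot of each gene by library). In order of mean TPM over the 6 libraries they were *OsSUS1* (1769), *OsSUS2* (700.1), *OsCIN2* (51.5), *CSA* (30.2), *OsSUS3* (17.3), *OsSUS4* (11.3), *OsCIN1* (4.60), *OsSUT1* (2.95), *OsCIN3* (0.166) and *OsMST8* (0.0447). *OsSUS1* ranked 30th and *OsSUS2* 132nd by mean among all 42189 listed genes. For 6 of the 9 neighbouring pairs in this order, the lowest of the 6 libraries of the higher gene lay above the highest library of the lower gene. *OsSUS3* and *OsSUS4* overlapped across libraries, although *OsSUS3* was higher in each of the 6. *OsCIN1* and *OsSUT1* overlapped, and *OsCIN3* and *OsMST8* overlapped close to 0.

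**Figure D1:**
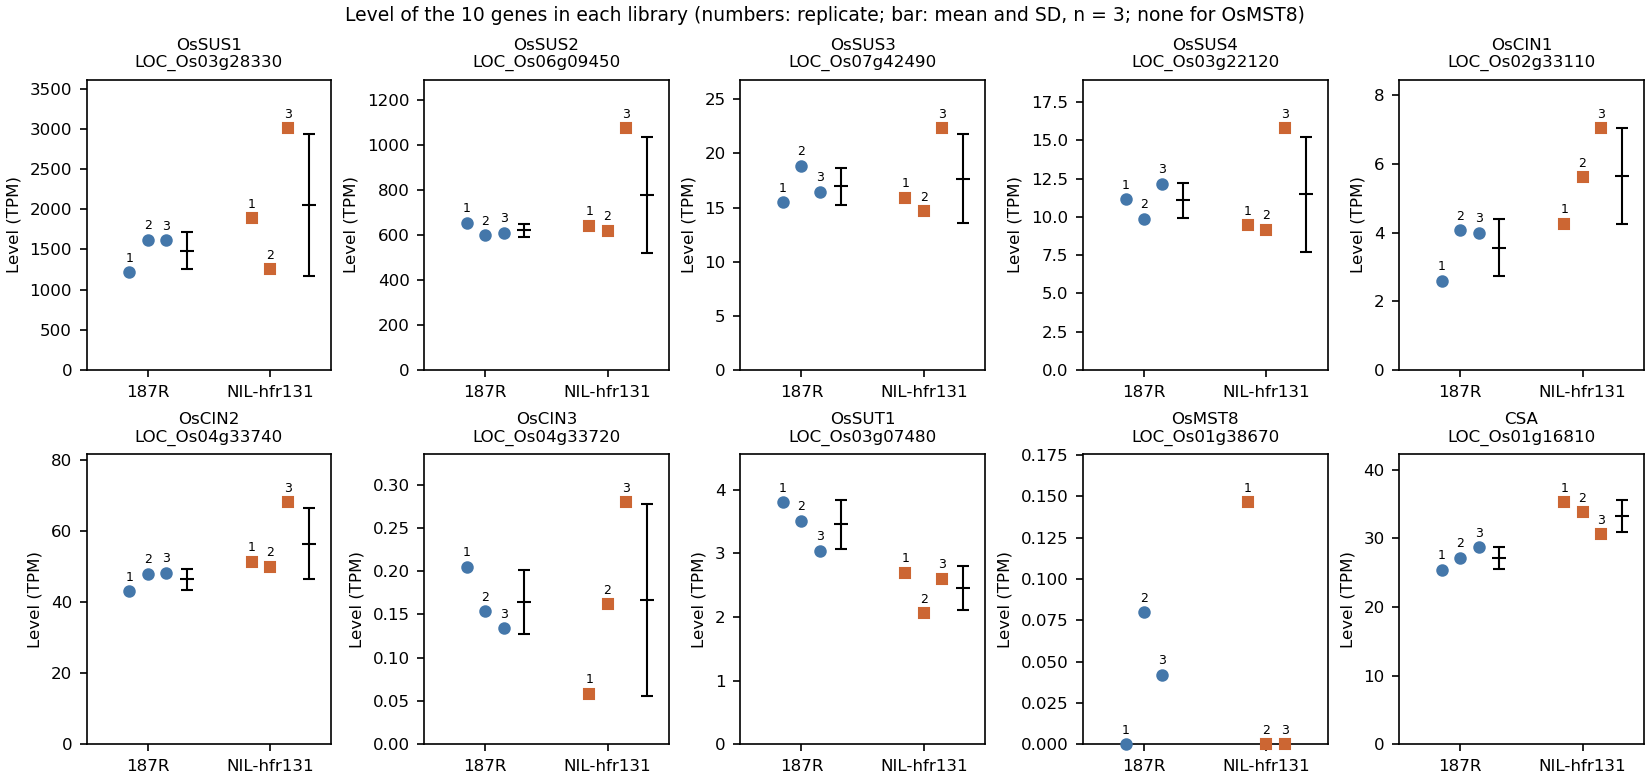
Level of each of the 10 genes in TPM (y axis, from 0, own scale per panel) in the 3 libraries of 187R (circles) and the 3 of NIL-hfr131 (squares), numbered by replicate, with the mean and SD of each line at the right of its points; OsMST8, listed at 0 in 3 libraries, has no mean. NIL-hfr131 replicate 3 is the highest point for OsSUS1, OsSUS2, OsSUS3, OsSUS4, OsCIN1, OsCIN2 and OsCIN3, and the lines do not overlap for OsCIN1, OsCIN2, OsSUT1 and CSA.

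None of the 8 tested members passed an adjusted p of 0.05 between the lines, where 0.307% of all tested genes did. At an unadjusted p under 0.05, 2 of the 8 passed (*OsCIN1* and *CSA*), against 8.36% of all tested genes. The 3 values of each line did not overlap for 4 of the 8, against 18.5% of all tested genes. Of these 4, *OsCIN1*, *OsCIN2* and *CSA* were higher in NIL-*hfr131* (8.59% of all tested genes were) and *OsSUT1* was lower (9.96%). The median log2 fold change of the 8 was 0.27, beside 0.05 over all tested genes. Without NIL-*hfr131* replicate 3 the median of the 8 was 0.04, beside -0.03 over all, and again none of the 8 passed the adjusted threshold, which 1.8% of all genes then passed. In that fit *CSA* and *OsSUT1* passed unadjusted, against 14.8% of all genes. With 3 libraries a line, an exact permutation test of a single gene cannot give a p below 0.1. Missing these thresholds does not show equal levels in the lines.

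**Figure D2:**
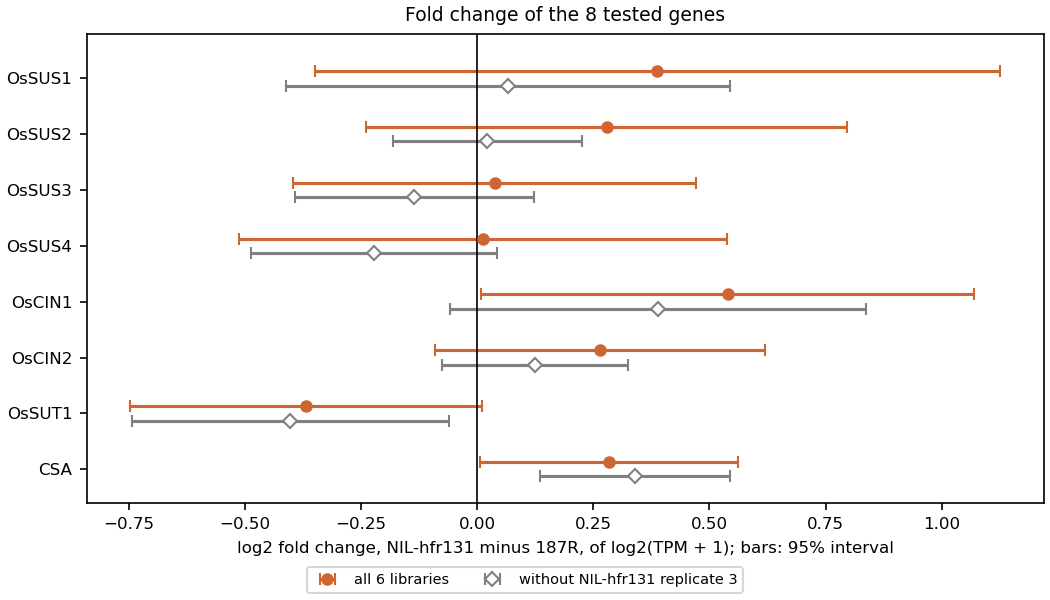
Log2 fold change of TPM + 1, NIL-hfr131 minus 187R (x axis), for the 8 tested genes (y axis), with 95% intervals from limma, over all 6 libraries (filled circles) and without NIL-hfr131 replicate 3 (open diamonds). Without that library OsSUS1 moves from 0.39 to 0.07 and OsSUS2 from 0.28 to 0.02, whereas CSA (0.28 and 0.34) and OsSUT1 (-0.37 and -0.40) stay close to their values over all libraries.

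*OsSUS1* (LOC_Os03g28330, chromosome 3), a sucrose synthase gene known for its expression in elongating tissues, had the highest level of the 10. Its levels in 187R replicates 1, 2 and 3 were 1217, 1623 and 1616 TPM, and in NIL-*hfr131* replicates 1, 2 and 3 they were 1893, 1255 and 3012 TPM. NIL-*hfr131* replicate 2 lay within the range of 187R, so the lines overlapped. The mean was 1485 ± 232 TPM in 187R and 2053 ± 889 TPM in NIL-*hfr131* (SD, n = 3 libraries per line). This gave a log2 fold change of 0.39 (SE, the standard error, 0.31; 95% interval -0.35 to 1.13; adjusted p = 0.694, limma). Leaving out NIL-*hfr131* replicate 3 brought it to 0.07 (95% interval -0.41 to 0.54; adjusted p = 0.916, limma), whereas leaving out NIL-*hfr131* replicate 2, the lowest of that line, raised it to 0.70 (adjusted p = 0.621, limma). The size of the difference thus depended on which NIL-*hfr131* library was kept.

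*OsSUS2* (LOC_Os06g09450, chromosome 6), the sucrose synthase gene known for its expression in many tissues, was steadier. It was at 655, 599 and 610 TPM in 187R and at 642, 619 and 1076 TPM in NIL-*hfr131*. Replicates 1 and 2 of NIL-*hfr131* fell inside the range of 187R, and only replicate 3 lay above it. Over all libraries its log2 fold change was 0.28 (SE 0.22; 95% interval -0.24 to 0.80; adjusted p = 0.694, limma). Without NIL-*hfr131* replicate 3 the log2 fold change was 0.02, with a 95% interval of -0.18 to 0.23 (adjusted p = 0.936, limma), and without NIL-*hfr131* replicate 2 it was 0.42 (adjusted p = 0.621, limma).

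*OsSUS3* (LOC_Os07g42490, chromosome 7) and *OsSUS4* (LOC_Os03g22120, chromosome 3), both known mainly from the developing grain, had far lower levels than *OsSUS1* and *OsSUS2*. *OsSUS3* was at 15.5, 18.9 and 16.5 TPM in 187R and at 15.9, 14.7 and 22.4 TPM in NIL-*hfr131*. *OsSUS4* was at 11.2, 9.88 and 12.1 TPM in 187R and at 9.47, 9.15 and 15.8 TPM in NIL-*hfr131*. Both genes overlapped between lines, with their highest level in NIL-*hfr131* replicate 3 and their lowest in NIL-*hfr131* replicate 2. The log2 fold changes were 0.04 (95% interval -0.40 to 0.47; adjusted p = 0.937, limma) for *OsSUS3* and 0.01 (95% interval -0.51 to 0.54; adjusted p = 0.985, limma) for *OsSUS4*. The sign of both turned without NIL-*hfr131* replicate 3, to -0.14 and -0.22 (adjusted p = 0.641 and 0.420, limma), and also with other scalings of the libraries. In that fit both remaining NIL-*hfr131* libraries were below every 187R library for *OsSUS4*.

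Nearly all sucrose synthase transcripts of the 4 genes came from *OsSUS1* and *OsSUS2*, whose shares differed between the lines by less than the spread between libraries. *OsSUS1* held 69.3 ± 4.50% of their summed TPM in 187R and 71.0 ± 4.27% in NIL-*hfr131* (SD, n = 3). *OsSUS2* held 29.4 ± 4.43% and 27.9 ± 4.10%. The remaining 2 genes together were a thin layer, with *OsSUS3* between 0.542% and 0.838% and *OsSUS4* between 0.370% and 0.588% in the 6 libraries. These 4 are not all sucrose synthase genes. The 3 other sucrose synthase loci, from the lists described below, summed to 79.5 to 102 TPM in 187R. In NIL-*hfr131* they summed to 65.5 to 129 TPM. The share of *OsSUS1* moved more between libraries of 1 line than between the lines, from 64.1% to 72.1% within 187R and from 66.1% to 73.9% within NIL-*hfr131*. NIL-*hfr131* replicate 3, at 73.0%, lay inside the range of the other libraries. That library thus had a higher sum of the 4 genes, 4126 TPM against 1898 to 2560 TPM in the other 5, while the shares of *OsSUS1* and *OsSUS2* stayed inside the range of the other libraries and that of *OsSUS3* was the lowest of the 6. No test was made on shares, since they combine members chosen as a set.

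**Figure D3:**
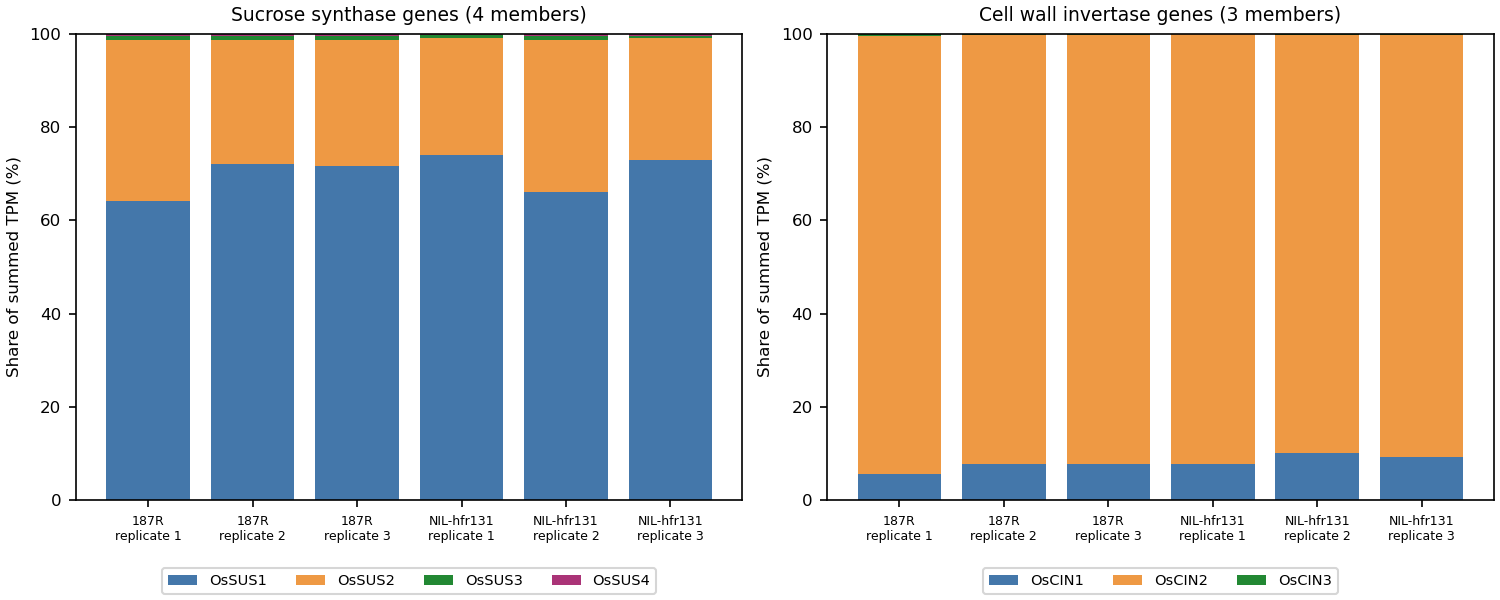
Share of the summed TPM in percent (y axis) held by each of the 4 sucrose synthase genes (left) and each of the 3 cell wall invertase genes (right) in the 6 libraries (x axis). OsSUS1 holds 64.1% to 73.9% of the left sum and OsCIN2 89.6% to 93.9% of the right sum; the OsSUS4 and OsCIN3 layers are under 0.6% and hardly visible.

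*OsCIN2* (LOC_Os04g33740, chromosome 4), also called *GIF1*, is the cell wall invertase known for its role in grain filling. It held most of the invertase transcripts of the 3 genes, but these are not all cell wall invertase genes. The 5 other cell wall invertase loci, from the lists described below, summed to 38.4 to 41.3 TPM in 187R. In NIL-*hfr131* they summed to 39.7 to 45.0 TPM. The level of *OsCIN2* was 43.1, 48.0 and 48.3 TPM in 187R and 51.4, 49.99 and 68.1 TPM in NIL-*hfr131*. All 3 libraries of NIL-*hfr131* were above all 3 of 187R, although the gap between NIL-*hfr131* replicate 2 and 187R replicate 3 was small. On the log2 scale the difference was 0.26 (SE 0.15; 95% interval -0.09 to 0.62; adjusted p = 0.694, limma). It shrank to 0.12 when NIL-*hfr131* replicate 3 was left out (95% interval -0.08 to 0.33; adjusted p = 0.569, limma).

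*OsCIN1* (LOC_Os02g33110, chromosome 2), a cell wall invertase gene known from the early developing grain, had the largest fold change of the 8 over all 6 libraries, but not without NIL-*hfr131* replicate 2 or 3 or with quantile normalization. It was at 2.60, 4.07 and 4.004 TPM in 187R and at 4.26, 5.62 and 7.05 TPM in NIL-*hfr131*. Again the lines did not overlap, but NIL-*hfr131* replicate 1 was close to 187R replicates 2 and 3. The mean was 3.56 ± 0.833 TPM in 187R and 5.64 ± 1.39 TPM in NIL-*hfr131* (SD, n = 3), a ratio of 1.59. Its log2 fold change was 0.54 (SE 0.22; 95% interval 0.01 to 1.07; adjusted p = 0.589, limma). It was 0.39 without NIL-*hfr131* replicate 3, and 0.38 without 187R replicate 1, which had the lowest level (adjusted p = 0.404 and 0.824, limma). The share of *OsCIN1* in the summed invertase TPM was 5.66%, 7.80% and 7.64% in 187R and 7.65%, 10.1% and 9.34% in NIL-*hfr131*. That share overlapped between the lines, because NIL-*hfr131* replicate 1 lay below 187R replicate 2.

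*OsCIN3* (LOC_Os04g33720, chromosome 4), which RefSeq also lists under the name *INV4*, is known as an invertase gene of the anther. Its identifier is close to that of *OsCIN2* on the same chromosome, and whether the pair shared reads in the authors' processing was not tested. It was listed at 0.205, 0.154 and 0.134 TPM in 187R and at 0.0584, 0.162 and 0.280 TPM in NIL-*hfr131*. All 3 values of 187R lay inside the range of NIL-*hfr131*, and the gene was below the minimum level for the test in both lines.

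*OsSUT1* (LOC_Os03g07480, chromosome 3), a sucrose transporter gene that works with protons and is known from the phloem, the grain and pollen, was the only tested member with a negative fold change over all libraries. It was at 3.80, 3.51 and 3.04 TPM in 187R and at 2.69, 2.06 and 2.60 TPM in NIL-*hfr131*. Every NIL-*hfr131* library was below every 187R library. The mean was 3.45 ± 0.383 TPM in 187R and 2.45 ± 0.345 TPM in NIL-*hfr131* (SD, n = 3), a ratio of 0.710. On the log2 scale the difference was -0.37 (SE 0.16; 95% interval -0.75 to 0.01; adjusted p = 0.613, limma). NIL-*hfr131* replicate 3 lay between the other NIL-*hfr131* libraries for this gene, and without it the log2 fold change was -0.40 (95% interval -0.74 to -0.06; adjusted p = 0.260, limma). Leaving out any 1 library kept the log2 fold change between -0.44 and -0.28.

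Neither *OsCIN1* nor *OsSUT1* passed the adjusted threshold, and their fold changes had opposite signs. The ratio of *OsCIN1* to *OsSUT1* does not depend on how a library is scaled. It was 0.684, 1.16 and 1.32 in 187R and 1.58, 2.73 and 2.71 in NIL-*hfr131*. The lines could not overlap in this ratio, because neither gene overlapped between the lines and their differences had opposite signs. The ratio therefore adds nothing to the values of the 2 genes. In 187R replicate 1 *OsSUT1* was the higher of the pair, and in the other 5 libraries *OsCIN1* was. The pair was chosen after the levels were seen, and no test was made on the ratio. The ratio of *OsSUS1* to *OsSUS2* ran from 1.86 to 2.71 in 187R and from 2.03 to 2.95 in NIL-*hfr131*, and these ranges overlapped. A whole panicle holds many cell types, and a lower level can come from fewer cells of a type or from less RNA per cell, which cannot be told apart in these libraries.

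*CSA* (LOC_Os01g16810, chromosome 1) is the MYB gene known for steering sugars into the anther, and rice plants without it have anthers starved of carbon. Its level was 25.5, 27.2 and 28.7 TPM in 187R and 35.3, 33.8 and 30.7 TPM in NIL-*hfr131*. The lines did not overlap, and NIL-*hfr131* replicate 3 was the NIL-*hfr131* library closest to 187R. The mean was 27.1 ± 1.62 TPM in 187R and 33.3 ± 2.37 TPM in NIL-*hfr131* (SD, n = 3), a ratio of 1.23. This was a log2 fold change of 0.28 (SE 0.12; 95% interval 0.01 to 0.56; adjusted p = 0.588, limma). Leaving out NIL-*hfr131* replicate 3 gave 0.34 (SE 0.087; 95% interval 0.13 to 0.54; unadjusted p = 0.00564, adjusted p = 0.128, limma), the lowest adjusted p of any member in any fit.

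*OsMST8* (LOC_Os01g38670, chromosome 1), the monosaccharide transporter gene that *CSA* is known to act on, was close to 0 throughout. It was listed at 0, 0.0798 and 0.0421 TPM in 187R and at 0.146, 0 and 0 TPM in NIL-*hfr131*. Libraries listed at 0 occurred in both lines. The gene was below the minimum level for the test, and no fold change is given. A difference at so low a level could not be detected here.

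The locus listed next after *OsMST8* differed between the lines. LOC_Os01g38680 belongs to the list of other monosaccharide transporter loci described below. It was at 1.16, 2.39 and 1.38 TPM in 187R and at 7.65, 7.24 and 11.4 TPM in NIL-*hfr131*, so the lowest NIL-*hfr131* library was well above the highest 187R library. Its mean rose from 1.64 ± 0.654 TPM in 187R to 8.75 ± 2.27 TPM in NIL-*hfr131* (SD, n = 3), a log2 fold change of 1.89 (SE 0.24; adjusted p = 0.0439, limma), where 0.251% of all tested genes passed upwards. Leaving out NIL-*hfr131* replicate 3 gave 1.70 (adjusted p = 0.010, limma), but without 187R replicates 1, 2 and 3 the adjusted p was 0.279, 0.120 and 0.279, and without NIL-*hfr131* replicates 1 and 2 it was 0.133 and 0.167 (limma). Its log2 fold change stayed between 1.70 and 2.08 in these 6 fits. Of the 10 loci listed on either side of *OsMST8*, 6 were tested, and LOC_Os01g38680 was the 1 that passed. Reads that fit both it and *OsMST8* could have been assigned to either, which was not tested. The locus numbers of LOC_Os01g38680, *OsMST8* and *CSA* lie 13370, 13380 and 35240 below the number of *OsBRI1*, also on chromosome 1, and whether they lie on the introgressed fragment was not analysed here.

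Of 11 loci known from the tapetum and the pollen wall, the anther tissues next to this sugar route, 2 rose and none fell at an adjusted p under 0.05, against 0.307% of all tested genes. The log2 fold change was positive for 7 of the 11 and negative for 4. The 11 loci summed to between 2577 and 2939 TPM in 187R and between 3375 and 4026 TPM in NIL-*hfr131*, and none was at 0 in every library. The lines did not overlap in this sum because of 1 locus, LOC_Os11g37280. Without it, a choice made after the values were seen, the other 10 summed to between 2163 and 2431 TPM in 187R and between 2164 and 2645 TPM in NIL-*hfr131*, and the lines overlapped. The 2 loci that passed were LOC_Os11g37280, at 414, 440 and 509 TPM in 187R and 1380, 1372 and 1211 TPM in NIL-*hfr131*, and LOC_Os01g70440, at 0.315, 0.111 and 0.117 TPM in 187R and 21.4, 32.6 and 12.9 TPM in NIL-*hfr131*, both named after their values were seen. Their log2 fold changes were 1.54 and 4.21 (adjusted p = 0.00695 and 0.00495, limma). LOC_Os01g70440 is on chromosome 1, as *OsBRI1* is, and whether it lies on the introgressed fragment was not analysed here. The 7 meiosis loci summed to between 50.3 and 53.8 TPM in 187R and to 40.9, 39.3 and 64.8 TPM in NIL-*hfr131* replicates 1, 2 and 3, and none of them passed. Of 5 leaf photosynthesis loci 1 rose, against 0.251% of all tested genes. It was LOC_Os12g19470, named after its values were seen, at 8.81 to 9.84 TPM in 187R and 26.9 to 35.7 TPM in NIL-*hfr131*. The list summed to between 1393 and 1499 TPM in 187R and between 953 and 1493 TPM in NIL-*hfr131*. Most of that sum was 1 locus, LOC_Os01g41710, also named after its values were seen. It was at 1187 to 1280 TPM in 187R and 735 to 1224 TPM in NIL-*hfr131*. The log2 fold change was positive for 3 of the 5 loci. The part of anther stage or of other tissues in the levels of *CSA* and LOC_Os01g38680 was not tested.

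**Figure D4:**
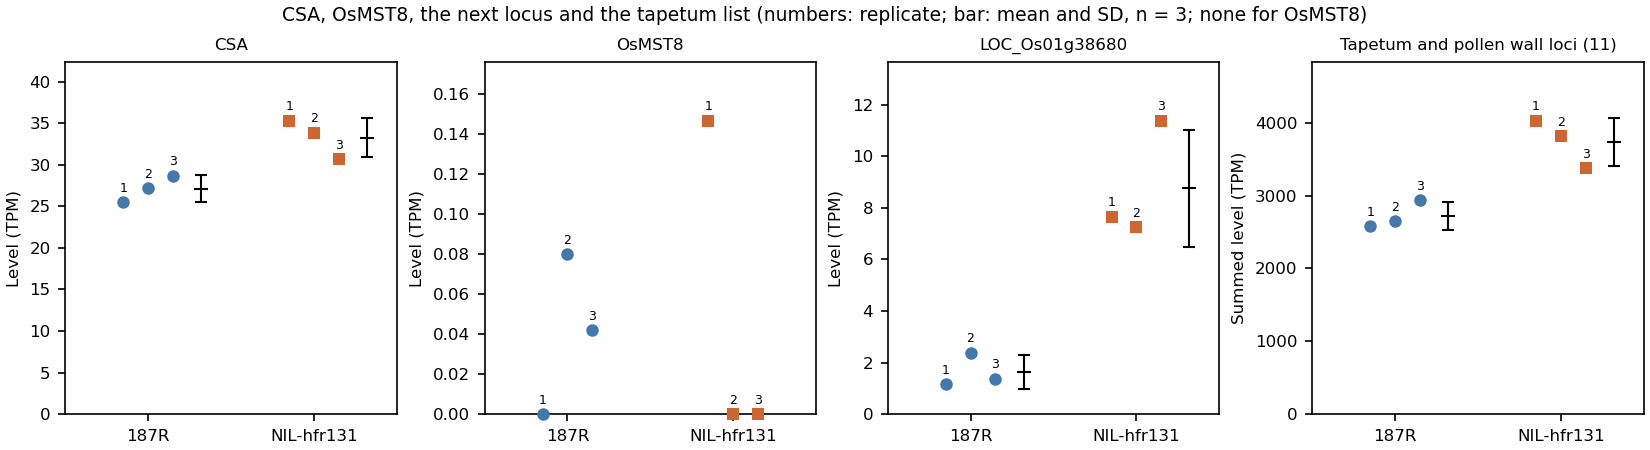
Levels in TPM (y axis, from 0) of CSA, OsMST8 and LOC_Os01g38680 and the summed level of the 11 tapetum and pollen wall loci in the 3 libraries of 187R (circles) and the 3 of NIL-hfr131 (squares), numbered by replicate, with the mean and SD at the right of the points except for OsMST8. The lines do not overlap for CSA, LOC_Os01g38680 and the summed loci, the last because of LOC_Os11g37280 (the other 10 loci sum to 2163 to 2431 TPM in 187R and 2164 to 2645 TPM in NIL-hfr131), whereas OsMST8 is at or below 0.146 TPM in all libraries.

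The other genes of sucrose metabolism and sugar transport were read from 8 lists of 40 loci, 31 of them tested. The lists were put together from general knowledge of rice locus identifiers, which the files do not pair with gene names. At an adjusted p under 0.05, 1 of the 31 rose (LOC_Os01g38680) and none fell, where 0.307% of all tested genes passed. That locus passed in 5 of its 13 alternative fits, and the adjusted p was 0.136 with the replicate number as a block, 0.0787 without a filter and 0.0554 with a minimum of 5 TPM (limma). Unadjusted, 5 passed, all upwards, against 8.36% of all tested genes in either direction. Without NIL-*hfr131* replicate 3, 11 of the 31 passed unadjusted, some upwards and some downwards, against 14.8% of all tested genes. The lines did not overlap for 7 of the 31, all higher in NIL-*hfr131*, where 18.5% of all tested genes did not overlap and 8.59% were higher. Without NIL-*hfr131* replicate 3 the loci that did not overlap went in both directions. The median log2 fold change of the 31 was 0.16, and 0.05 without NIL-*hfr131* replicate 3.

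Neither of the 2 vacuolar invertase loci passed the adjusted threshold. Both had every NIL-*hfr131* library above every 187R library, as 8.59% of all tested genes did. LOC_Os02g01590 was at 164 ± 10.9 TPM in 187R and 203 ± 16.3 TPM in NIL-*hfr131*, and LOC_Os04g45290 at 4.46 ± 0.323 and 6.30 ± 0.915 TPM (SD, n = 3; adjusted p = 0.531 and 0.545, limma). They were named after their values were seen. The SWEET list, of sugar efflux carriers, held 1 locus that depended on NIL-*hfr131* replicate 3. LOC_Os02g30910 was at 91.8, 98.2 and 94.2 TPM in 187R and at 165, 142 and 110 TPM in NIL-*hfr131*. Its log2 fold change was 0.53 (adjusted p = 0.424, limma). When that library was left out the change was 0.69 and the adjusted p 0.0153 (limma), past the threshold, which 1.8% of all tested genes then passed. The locus was named for this reason, after its values were seen. The 3 other sucrose synthase loci had log2 fold changes of -0.12 to 0.02, and of -0.42 to -0.31 without that library.

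**Figure D5:**
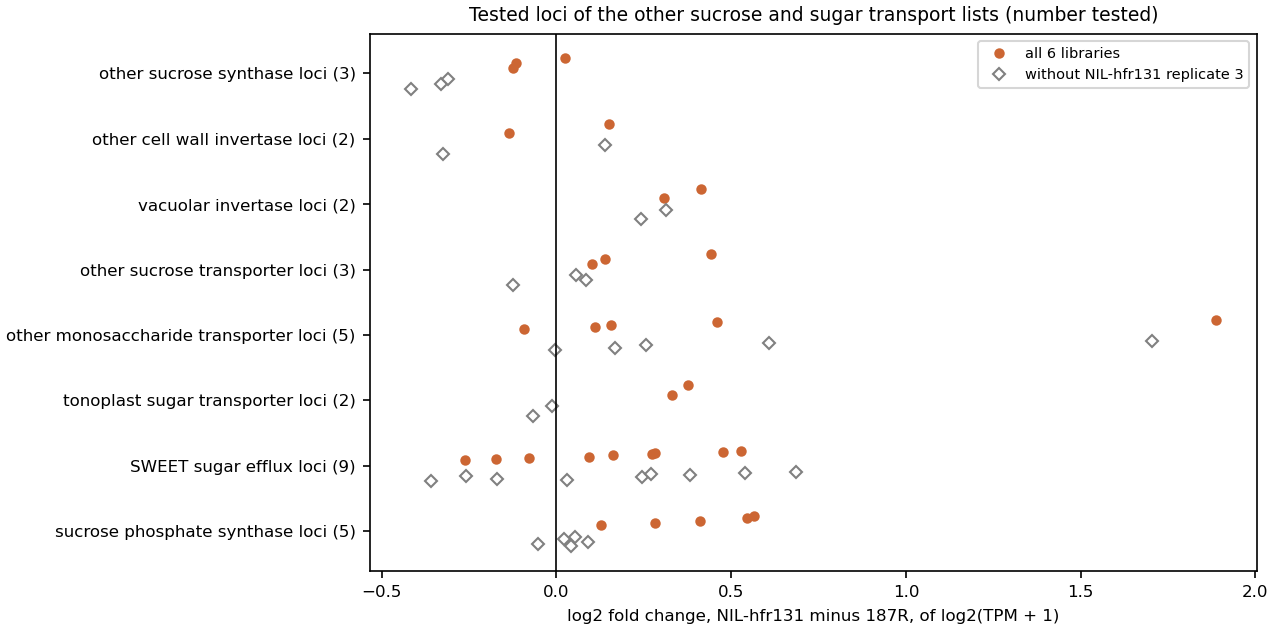
Log2 fold change of TPM + 1, NIL-hfr131 minus 187R (x axis), of the 31 tested loci in 8 lists of sucrose metabolism and sugar transport (y axis, number tested in brackets), over all 6 libraries (filled circles) and without NIL-hfr131 replicate 3 (open diamonds). LOC_Os01g38680 stands alone at 1.89 and 1.70; the other loci lie between -0.42 and 0.69 in both fits.

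NIL-*hfr131* replicate 3 was high for some lists and not for others. It was the highest of the 6 libraries for 6 of the 8 tested members, all but *OsSUT1* and *CSA*, and the lowest for none. Of all tested genes, 47.6% were highest and 27.0% lowest in this library. *OsSUS1* was 1.98 times and *OsSUS2* 1.72 times its mean over the other 5 libraries. On the log2(TPM + 1) scale they lay 1.01 and 0.784 above the mean of the other 5. Of all tested genes, 30.1% lay over 0.5 and 11.6% over 1 above that mean. The 5 sucrose phosphate synthase loci, of the enzyme that makes sucrose, summed to 223 TPM in this library against 80.1 to 90.2 TPM in the other 5. The 2 tonoplast sugar transporter loci summed to 278 TPM against 118 to 127 TPM. The SWEET loci had their lowest sum in this library, 964 TPM against 1075 to 1254 TPM, because of 1 locus. LOC_Os01g65880, named after its values were seen, was at 456 TPM in this library against 636 to 758 TPM in the other 5. Without it the sum was not lowest there. Of the 9 tested SWEET loci, 2 were highest and 2 lowest in this library. The other monosaccharide transporter loci, at 90.8 TPM, were below NIL-*hfr131* replicates 1 and 2 (107 and 96.6 TPM). They were above the 187R libraries (79.5 to 85.2 TPM).

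Of the tested members, *OsSUS1* varied the most over the 6 libraries, with an SD of 0.48 on the log2(TPM + 1) scale. The 3 tested genes whose levels followed it most closely were LOC_Os01g12410, LOC_Os07g42960 and LOC_Os03g61340, with Pearson correlations of 0.998, 0.991 and 0.988 over the 6 libraries as a description. They were the closest of all 21531 genes, and the libraries share the high value of NIL-*hfr131* replicate 3. Over the other 5 libraries the correlations of the same 3 genes were 0.999, 0.975 and 0.954. Those 5 were among the 6 libraries by which the genes were picked, so these values are no separate check. LOC_Os01g12410 was at only 0.853 to 2.04 TPM. LOC_Os07g42960 moved only from 240 to 285 TPM and LOC_Os03g61340 from 14.4 to 21.0 TPM, whereas *OsSUS1* moved from 1217 to 3012 TPM.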

How the data were processed

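Messenger RNA of young panicles was measured in 3 libraries of 187R and 3 of NIL-*hfr131*, and groups follow the line named in each label. The authors sequenced the libraries on an MGISEQ-2000 platform and deposited TPM values per gene. The methods name FPKM, but each column sums to 1000000, so the values were used as TPM. The aligner, genome build and annotation are not given in the sources used here. TPM keeps no depth, so no counting error was computed, and errors are the spread between replicates.

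Differences between lines were tested in R 4.3.3 with limma 3.58.1 (linear model of log2(TPM + 1) on line, prior variance following the mean level, two-sided p-values with Benjamini-Hochberg adjustment over the 21531 genes whose mean TPM reached 1, threshold 0.05). The fit was first run on simulated data with independent noise for each gene and library. No simulated library stood apart as NIL-*hfr131* replicate 3 does, so the simulation does not cover that feature. The fit was repeated with quantile normalization, with median-of-ratios factors, with a pseudocount of 0.1, with a minimum of 5 TPM or none, with a constant prior, with the replicate number as a block, and without each library in turn. Tables were made in Python 3.11.15 (numpy 2.4.6, pandas 2.3.3) and drawn with matplotlib 3.10.9.

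The members and lists were chosen with earlier results of these data known. Named genes were the 10 members, listed loci with an adjusted p under 0.05, and the 3 genes closest in pattern to the most variable member; others are marked where named. RefSeq's rice gene table (assembly ASM3414082v1) held 0 of the 42189 identifiers, so no positions or sequences are given, and a planned promoter motif search was not run. RefSeq lists 8 of the 10 member names, without the identifiers. Paralogs may share reads in the authors' processing, which was not tested.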

Additional observations from a re-analysis of the deposited data

How the results depend on the processing

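Of 102 fits of the tested members under 13 alternatives, 94 kept direction and side of the threshold and 8 changed sign, all in *OsSUS3* and *OsSUS4*. *OsSUS3* was at -0.0045 with median-of-ratios factors, -0.042 with quantile normalization, -0.020 without 187R replicate 1 and -0.14 without NIL-*hfr131* replicate 3 (log2 fold change), and leaving out 1 library at a time gave -0.14 to 0.15. *OsSUS4* was at -0.030 and -0.069 with these scalings, -0.060 without 187R replicate 2 and -0.22 without NIL-*hfr131* replicate 3, with a range of -0.22 to 0.14 over the libraries left out. The cause was not tested. *OsCIN1* and *OsSUT1* lie below the minimum mean TPM of 5 and have no value there. LOC_Os01g38680 passed in 5 of its 13 alternatives.

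Leaving out 1 library gave 13 to 384 genes past the threshold in place of 66, with 11 to 278 higher and 2 to 106 lower in NIL-*hfr131*. The highest counts came without NIL-*hfr131* replicate 3. With the replicate block, 16 genes passed, 14 higher and 2 lower. Same-numbered samples had correlations of deviations of -0.21, 0.060 and 0.090, so the numbers were not taken as pairs. Over the same leave-one-out fits, the share of *OsSUS1* was 67.9% to 71.9% in 187R and 69.6% to 73.5% in NIL-*hfr131*, and that of *OsCIN2* 92.0% to 93.0% and 90.0% to 91.3%. Depth is unknown, so levels near 0, as of *OsMST8* and *OsCIN3*, give no limit of detection.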
